A study of Mus musculus with 96 samples.

Results

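The forebrain of sleep-deprived mice (SD) was compared with that of undisturbed control mice (CON) at circadian time 20 (CT20), which falls in the active phase of a mouse. The comparison rested on 4 of the 96 libraries of the series, 2 SD and 2 CON, and the spread of each gene was estimated from these and the 20 forebrain libraries of the other 5 time points. All animals were wild-type male C57BL/6 mice of 6 to 8 weeks raised under 12 h of light and 12 h of darkness, and the labels of both groups give DD16, a time in constant darkness. SD mice were kept awake for 10 h of the resting phase by a drum that turned slowly and gave access to food and water, and how many hours passed between the drum and CT20 is not given in the sources used here. Nor do these sources say whether a library came from 1 animal or a pool, so p-values measure the spread between libraries. CT20 was chosen by its number of called genes, the highest among the 6 forebrain time points, and its counts and adjusted p-values therefore describe these 4 libraries and do not account for that choice.

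Sleep loss is known to raise activity-dependent and stress-responsive transcripts in the rodent forebrain and to alter RNAs for synaptic proteins, chaperones and RNA-processing factors. The libraries were made from total RNA depleted of ribosomal RNA, which holds spliced messenger RNA together with RNA still in the nucleus, such as unspliced introns and nuclear long noncoding RNAs. Neuronal genes include many of the longest in the genome, and their introns are far larger than their exons. A gene's genomic span, from its first to its last annotated base, therefore differs from its exonic length, and both were examined.

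The 24 forebrain libraries held 29.0 to 48.0 M counts, and the CT20 libraries 36.2 and 36.5 M in CON and 29.5 and 36.3 M in SD. Levels are given in CPM, counts scaled to a fixed library size after TMM normalization, and compared within a gene only. Marker sums are given as a description and do not check the label, since no library of another tissue was set beside them. Each sum is compared between libraries, not with that of another list. The 8 neuron markers, such as Snap25 and Rbfox3, summed to 5259 to 6309 CPM in the 4 libraries. The 9 cortical and hippocampal excitatory neuron markers summed to 1814 to 2464 CPM, and the 4 of 7 cerebellum markers that were tested to 111 to 153 CPM. The share of each forebrain region was uneven, however. The 10 striatal neuron markers, such as Drd1 and Ppp1r1b, summed to 1293 and 434 CPM in CON and 322 and 2589 CPM in SD, where the 20 libraries of other times spanned 260 to 2313 CPM. In bulk tissue, fewer cells of a type and less RNA per cell cannot be told apart.

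Of 23078 features tested, 526 (2.28%) were called at an edgeR adjusted p under 0.05, of which 426 (1.85%) were higher and 100 (0.433%) lower in SD. All adjusted p-values of these calls lay between 0.0262 and 0.0499, and 4973 features had an unadjusted p under 0.05. Both SD libraries lay on the same side of both CON libraries for all 526, as for 53.7% of all 23078 features, of which 6155 were higher and 6247 lower in SD. The median change of the calls was 0.89 on the log2 scale for the higher and -0.40 for the lower features. The last feature called was Tmed8 (log2 fold change 0.65, adjusted p = 0.0499), and the first not called was the pseudogene Gm15843 (1.15, adjusted p = 0.0504).

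The calls depended on single libraries. Without SD replicate 1 no feature was called, with 2654 at an unadjusted p under 0.05, and without CON replicate 2 only 1, Zrsr1, which was not among the 526 (log2 fold change -0.90, adjusted p = 0.0369). Without CON replicate 1 there were 112 calls and without SD replicate 2 there were 1193, where the library left alone was assumed to vary like the other groups. All 526 features had both SD libraries on the same side of both CON libraries. A direction kept without 1 of these libraries is therefore no added result. Without SD replicate 1, the median change was 0.62 for the 426 higher and -0.38 for the 100 lower features. Replicate 1 was the further of the SD libraries from CON for 92.0% of the higher features, against 60.7% of all features, and CON replicate 2 the further from SD for 85.2%, against 59.8%. No feature passed when p-values were adjusted over the 6 time points together (lowest adjusted p = 0.105) or when the 4 libraries were fitted alone (lowest adjusted p = 0.0582).

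The feature with the smallest p was Malat1, an abundant long noncoding RNA kept in the nucleus, where it sits at the speckles that store splicing factors. Malat1 (chromosome 19, 5795690 to 5802672, minus strand, GRCm38) had 4834 and 4472 CPM in CON and 9360 and 7953 CPM in SD (log2 fold change 0.90, SE 0.12, adjusted p = 0.0262). The CON values lay at the low end of the 10 CON libraries of other times, which spanned 4827 to 8291 CPM, with replicate 2 below all of them, and SD replicate 1 lay above the 10 SD libraries, which spanned 5826 to 9069 CPM. Kcnq1ot1, an imprinted antisense RNA from within Kcnq1 (chromosome 7, 143203458 to 143296549), had 33.9 and 28.1 CPM in CON and 74.5 and 49.7 CPM in SD (1.003, SE 0.21, adjusted p = 0.0383). Snhg14, a long host transcript of small nucleolar RNAs that runs antisense to Ube3a (chromosome 7, 59307924 to 59975759), had 567 and 468 CPM in CON and 937 and 680 CPM in SD (0.64, SE 0.14, adjusted p = 0.0401). Of the 10 nuclear long noncoding RNAs tested, these 3 rose and none fell, where 1.85% of all features rose. The list as written holds Gm26917, whose counts were also used as a marker of ribosomal RNA left after depletion. The list had a median of 0.66 against 0.00 for all features, and 9 of its members had both SD libraries above both CON libraries, as did 6155 of the 23078 features. Meg3, not called, had 913 and 754 CPM in CON and 1667 and 1058 CPM in SD.

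**Figure D1:**
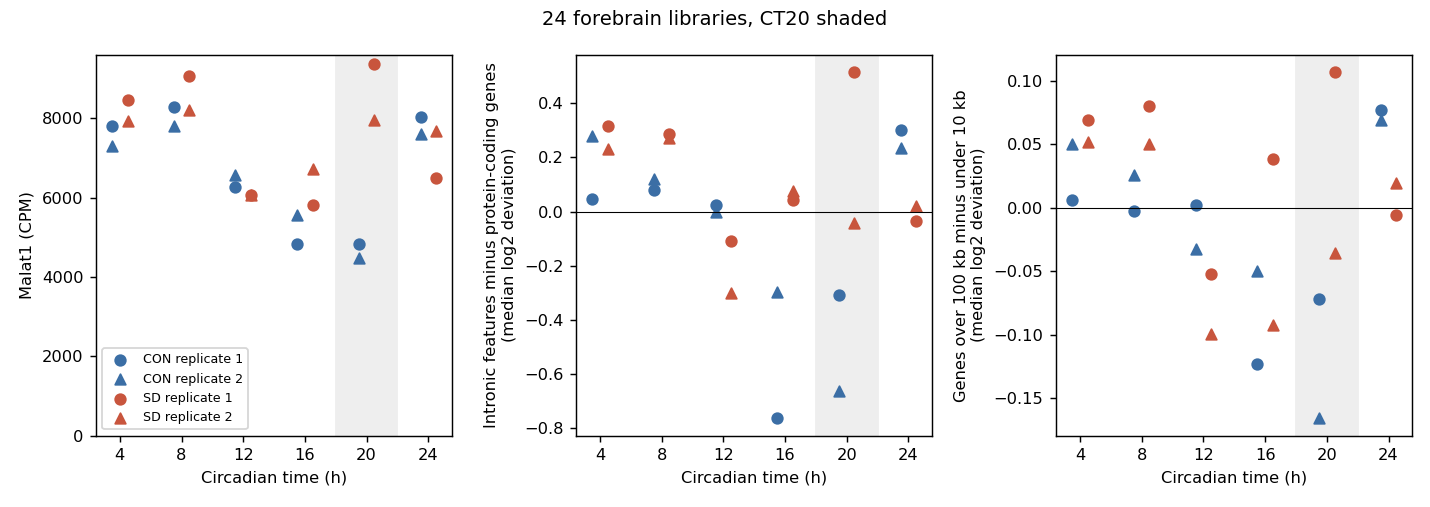
Malat1 in CPM (left), the median log2 level of intronic features minus that of protein-coding genes (middle) and the same for protein-coding genes over 100 kb minus those under 10 kb (right) in the 24 forebrain libraries by circadian time in h, with CON blue, SD red, circles for replicate 1 and triangles for replicate 2. Log2 levels are deviations from each feature's mean over the 24 libraries; at CT20, shaded, SD replicate 1 is highest in all 3 panels, and CON replicate 2 is lowest in the left and right panels.

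The largest increases were mostly in short annotated features that lie within an intron of a protein-coding gene on the same strand. The largest group of these, with 948 tested, are single-exon transcripts that GENCODE classes as TEC, awaiting experimental evidence. The rest include processed pseudogenes, small RNA loci and transcripts named sense-intronic. Reads from the unspliced RNA of the host gene fall on them as well as reads from a transcript of their own, and counts cannot separate the sources. Of 1910 such features tested, 136 rose and 1 fell. Of the 948 TEC features 107 rose (11.3%), and of the 320 processed pseudogenes 12 (3.75%). Same-strand intronic features made up 8.28% of the features tested and 31.9% of those called higher. Their median log2 fold change was 0.74, and 89.1% were above 0. Intronic features on the strand opposite to the host had 8 higher and 1 lower of 1110, and a median of -0.05. For the 15054 protein-coding genes the median was -0.04, with 1.51% higher and 0.604% lower. The numbered loci of the table, whose origin is not given in the sources used here, had a median of 0.32, with 18 higher and 0 lower of 1004.

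**Figure D2:**
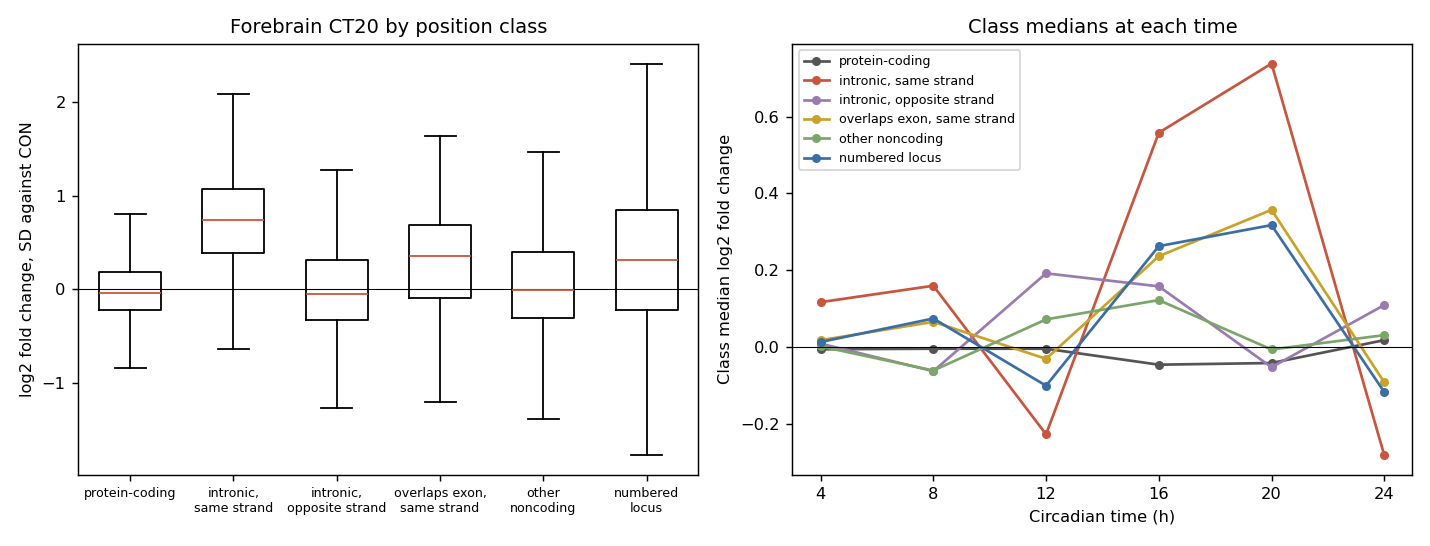
Log2 fold change of SD against CON at CT20 by position class (left; boxes, quartiles with the median in red; whiskers, 1.5 times the interquartile range) and the median of each class at the 6 circadian times in h (right). The same-strand intronic class stands at 0.74 at CT20 and 0.56 at CT16, and at -0.23 and -0.28 at CT12 and CT24, while protein-coding genes stay between -0.05 and 0.02.

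Among the 12 largest increases taken by the naming rule, 10 were same-strand intronic features. Of these, 3 lay in the protocadherin gene Pcdh7, 2 in Kcnip4 and 1 each in Pcdh9, Lhfp, Dock10, Kctd8 and Nrxn3. The exceptions were Acot10 and the pseudogene Gm37164, which lies within Ralyl on the opposite strand. Gm42479, within Pcdh7 on chromosome 5 (57925620 to 57926975), had 1.96 and 1.35 CPM in CON and 6.35 and 4.63 CPM in SD (1.72, SE 0.27, adjusted p = 0.0292). C130075A20Rik, within Lhfp on chromosome 3 (53099000 to 53103175), had 5.94 and 4.88 CPM in CON and 20.7 and 14.3 CPM in SD (1.69, SE 0.30, adjusted p = 0.0307). Both had their CT20 CON values below those of all 10 other CON libraries. The SD values of Gm43318 in Kcnip4 were further apart, with 4.23 and 2.67 CPM in CON against 15.5 and 5.55 CPM in SD.

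The smallest of these features show how little of an intron a count can rest on, and their whole annotated sequences are given for that reason, from GENCODE M21 on GRCm38, in lower case. Gm23989 (chr12:89431336-89431401, plus strand) is classed as a miRNA locus in Nrxn3, a neurexin that joins synapses, and is built of short repeats. Gm23509 (chr14:93138030-93138189, minus strand) is classed as a small nuclear RNA in Pcdh9, a protocadherin.
Gm23989: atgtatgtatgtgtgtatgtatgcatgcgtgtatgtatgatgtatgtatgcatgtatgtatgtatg
Gm23509: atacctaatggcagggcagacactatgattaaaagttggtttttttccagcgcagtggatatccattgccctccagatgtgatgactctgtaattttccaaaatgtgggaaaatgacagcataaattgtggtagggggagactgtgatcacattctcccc
Gm23989 had 0.636 and 0.730 CPM in CON and 3.46 and 1.79 CPM in SD (1.93, SE 0.44, adjusted p = 0.0420). Gm23509 had 0.525 and 0.449 CPM in CON and 2.104 and 1.63 CPM in SD (1.93, SE 0.31, adjusted p = 0.0292). In both loci the groups were apart, and neither host gene's own exons differed as much, with Nrxn3 at 715 and 591 CPM in CON and 1253 and 923 CPM in SD (0.74, adjusted p = 0.0517) and Pcdh9 as given further on.

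The host genes of the intronic features changed less in their own counts, which come from annotated exons. The 136 higher features lay in 92 host genes, of which 4 were themselves called higher. Their median log2 fold change was 1.16, against 0.13 for their hosts counted once per feature, and 134 of the 136 exceeded their host. Since the 136 were chosen for a large change, all tested features give the fairer view: 1623 of the 1860 with a tested host exceeded it, by a median of 0.69. Dlg2, which encodes the postsynaptic scaffold PSD-93 and spans 1973 kb, held 11 higher features of 20 tested, with a median of 1.19, while its own change was -0.01 (adjusted p = 0.956). Auts2 held 6 of 17 with a median of 0.98 and changed by 0.01 itself, and Ank2, an ankyrin of axons, held 4 of 12 with a median of 0.92 and changed by -0.15. Kcnip4, a partner of potassium channels, was the exception among hosts of many features, with 6 of 10, a median of 1.498 and 1.45 for the gene itself. It was not called (adjusted p = 0.0614) and had 1186 and 954 CPM in CON against 4334 and 1518 CPM in SD.

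The share of higher intronic features was greater in longer hosts. In hosts under 100 kb, 3.53% of 651 features rose, in hosts of 100 to 300 kb 5.8% of 586, and in hosts over 300 kb 11.7% of 673. The class medians were 0.59, 0.76 and 0.88. Features in long hosts also had more reads, with a median of 1.15 CPM over 300 kb and 0.614 CPM under 100 kb, and the part of that difference in the counts of calls was not tested.

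Of 295 tested loci classed as miRNA, Gm23989 among them, 6 rose and none fell, a share of 2.03% that is near the 1.85% of all features and is no result about miRNA loci as a class. The mature miRNAs are too short to be told from their precursors here, and the counts cover the annotated hairpin locus or the RNA that runs through it. Mature sequences were found in RefSeq (GRCm38.p6) for 4 of the 6 loci and are shown, 5′ to 3′, to identify them, with the seed (bases 2 to 8) in capitals. No seed was shared among the 7 sequences.
mmu-miR-708-5p: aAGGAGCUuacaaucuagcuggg
mmu-miR-708-3p: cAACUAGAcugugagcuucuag
mmu-miR-674-5p: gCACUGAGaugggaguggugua
mmu-miR-674-3p: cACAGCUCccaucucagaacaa
mmu-miR-1197-5p: cGGUUGACcaugguguguacg
mmu-miR-1197-3p: uAGGACACauggucuacuucu
mmu-miR-1931: aUGCAAGGgcuggugcgauggc
Mir708 (chr7:96249424-96249532), in an intron of Tenm4, had 21.6 and 16.1 CPM in CON and 47.5 and 35.8 CPM in SD (1.14, SE 0.24, adjusted p = 0.0378). Mir674 (chr2:117185127-117185226) had 9.10 and 8.45 CPM in CON and 24.9 and 16.9 CPM in SD (1.25, SE 0.30, adjusted p = 0.0441). Mir1197 (chr12:109712317-109712436) had 4.15 and 3.59 CPM in CON and 9.98 and 8.36 CPM in SD (1.24, SE 0.21, adjusted p = 0.0292). Mir1931, in an intron of Cdk17, had 0.747 and 0.673 CPM in CON and 1.93 and 1.49 CPM in SD. In all 4 loci the groups were apart, and SD replicate 1 was the higher of the SD libraries.

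Protein-coding genes that rose included several with roles in RNA processing. The SR splicing factors and CLK kinases direct splice site choice. Of 26 tested, 4 (15.4%, against 1.85% of all features) rose and none fell, with a list median of 0.22. These were Rbm25 (138 and 125 CPM in CON, 185 and 156 in SD), Pnisr (96.4 and 79.7, then 134 and 114), Tra2a (92.8 and 81.5, then 131 and 113) and Clk4, a kinase of SR proteins (45.5 and 39.0, then 61.5 and 58.2). Their log2 fold changes lay between 0.37 and 0.50, with adjusted p from 0.0390 to 0.0441. In the list, 18 members had both SD libraries above both CON libraries and 3 the reverse, against 6155 and 6247 of all 23078 features. Rbfox1, a neuronal splicing regulator of 1526 kb on chromosome 16 (5885355 to 7411526), had 641 and 501 CPM in CON and 979 and 880 CPM in SD (0.70, SE 0.14, adjusted p = 0.0374).

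Of 40 tested histone and DNA methyl modifiers, Chd2 and Chd1, remodelers that space nucleosomes on transcribed genes, rose, none fell and the median was 0.11. That is 5% of the list, against 1.85% of all features. Chd2 had 127 and 127 CPM in CON and 184 and 159 CPM in SD (0.44, adjusted p = 0.0354), and Chd1 had 66.5 and 70.0 CPM in CON and 92.7 and 81.4 CPM in SD (0.35, adjusted p = 0.0483). Chd7 and Tet3 were just outside the threshold, with adjusted p of 0.0526 and 0.0516.

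Other protein-coding increases came from genes of diverse function. C2cd5, which takes part in insulin-stimulated glucose transporter traffic (chromosome 6, 143010920 to 143100141), had 99.4 and 88.5 CPM in CON and 149 and 132 CPM in SD (0.58, SE 0.08, adjusted p = 0.0262). Zfp385b, a zinc finger gene of 409 kb on chromosome 2, had 95.1 and 73.8 CPM in CON and 156 and 166 CPM in SD (0.93, SE 0.13, adjusted p = 0.0292). Rora, a nuclear receptor that drives the clock gene Arntl (chromosome 9, 68653786 to 69388246), had 520 and 447 CPM in CON and 828 and 731 CPM in SD (0.69, SE 0.15, adjusted p = 0.0383). Acot10, an acyl-CoA thioesterase, had the largest increase of the genes named here, from 4.67 and 6.29 CPM in CON to 32.6 and 13.3 CPM in SD (2.07, SE 0.49, adjusted p = 0.0436). Acot10 is a single short gene of 1.54 kb that lies within the span of Cdh12 on the opposite strand, and it resembles Acot9, so its count is uncertain.

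Pcdh9 (chromosome 14, 93013410 to 93890679) had 1871 and 1402 CPM in CON and 4103 and 2632 CPM in SD (1.04, SE 0.23, adjusted p = 0.0390). It was the only gene called of 51 tested synaptic adhesion and axon guidance genes, whose median was 0.13. That share, 1.96%, is near the 2.28% of all features and is no result about the list. Sgcz, a sarcoglycan gene of 1139 kb, had 291 and 189 CPM in CON and 661 and 475 CPM in SD (1.24, SE 0.28, adjusted p = 0.0390). Immp2l, a mitochondrial inner membrane peptidase gene of 931 kb, had 41.5 and 29.6 CPM in CON and 76.6 and 49.7 CPM in SD (0.83, SE 0.18, adjusted p = 0.0390). Rbfox1, Sgcz and Immp2l were the 3 named genes of longest span, and in each of them CON replicate 2 was the lowest and SD replicate 1 the highest of the 4 libraries.

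Of the genes that fell, the largest decrease by the naming rule was in Npsr1, the receptor of neuropeptide S, a peptide known to promote wakefulness. Npsr1 (chromosome 9, 24097996 to 24316398) had 7.22 and 7.80 CPM in CON and 2.51 and 2.16 CPM in SD (-1.69, SE 0.33, adjusted p = 0.0356). The SD values were below all 10 SD libraries of other times, which spanned 3.19 to 9.55 CPM, and the CON values above all 10 CON libraries, which spanned 2.35 to 7.13 CPM. Atp2b4, a calcium pump of the plasma membrane, had 603 and 678 CPM in CON and 306 and 248 CPM in SD (-1.21, SE 0.30, adjusted p = 0.0485). Zdhhc22, which adds palmitate to membrane proteins, had 71.0 and 83.0 CPM in CON and 41.9 and 34.5 CPM in SD (-1.01, SE 0.18, adjusted p = 0.0319).

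Smaller decreases with little spread between replicates were seen in Cds2, an enzyme of phosphatidylinositol synthesis (812 and 870 CPM in CON, 653 and 635 in SD), in Vstm2a (125 and 126 CPM, then 88.6 and 93.1) and in Maged2 (27.8 and 28.4 CPM, then 19.9 and 18.03). Syp, which encodes the vesicle protein synaptophysin, had 1043 and 1176 CPM in CON and 811 and 770 CPM in SD (-0.49, SE 0.12, adjusted p = 0.0455). It was the only gene called of 28 tested genes of synaptic vesicles and release, whose median was -0.10, and 12 of them had both SD libraries below both CON libraries and 6 the reverse, against 6247 and 6155 of all 23078 features. Syn2 (691 and 684 CPM in CON, 438 and 328 in SD) was not called (adjusted p = 0.0673).

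Gbp4, an interferon-induced GTPase of a family of similar genes, had 4.65 and 8.56 CPM in CON and 2.104 and 2.103 CPM in SD (-1.65, SE 0.36, adjusted p = 0.0390). Of 22 tested genes of the interferon response and MHC class I, Gbp4 alone was called, the list median was -0.51, and 15 had both SD libraries below both CON libraries and none the reverse. Of all 23078 features, 6247 had the groups apart as lower in SD and 6155 as higher, and 0.433% were called lower. The median log2 fold change of the list was also -0.29 at CT4, -0.40 at CT8, -0.14 at CT12, -0.52 at CT16 and -0.48 at CT24. In the cerebellum at CT20 it was -0.57. A low median of this list was thus not particular to the forebrain at CT20. Psme2, an interferon-inducible activator of the proteasome, fell from 7.66 and 7.41 CPM to 4.38 and 3.76 CPM (-0.89, SE 0.22, adjusted p = 0.0467), and Lcp2, an adaptor of immune receptor signalling, from 5.64 and 4.85 CPM to 2.41 and 2.75 CPM (-1.02, SE 0.22, adjusted p = 0.0390). Of 8 microglia markers, Cx3cr1, the fractalkine receptor, fell from 53.5 and 53.9 CPM to 37.2 and 41.8 CPM (-0.44, SE 0.09, adjusted p = 0.0354), and all 8 had both SD libraries below both CON libraries. Their sum was 336 and 359 CPM in CON and 268 and 300 CPM in SD, where the 10 CON libraries of other times spanned 261 to 352 CPM. The part of microglial content in the immune genes was not tested.

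Of 72 tested genes of cytosolic ribosomal proteins, Rpl7 fell, with 142 and 146 CPM in CON and 110 and 120 CPM in SD (-0.32, SE 0.07, adjusted p = 0.0390), and none rose. The list median was -0.22, and 44 members had both SD libraries below both CON libraries and 3 the reverse. Of all 23078 features, 6247 and 6155 did so, and 0.433% were called lower, against 1.39% of this list. Ribosomal protein genes have many pseudogene copies, so reads of single members are uncertain. Rpl7 is also short, at 3.37 kb. Chaperones of the cytosol and the endoplasmic reticulum, which sleep loss is known to raise, had a median of -0.16 with 0 of 31 called. At the 2.28% called among all features, 0 calls in a list of this size is no result about it.

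No immediate early gene was called of 23 tested, and the list median was 0.25. Over all features 2.28% were called, so 0 or 1 calls in this list and those below are no result about them. Arc, which acts at active synapses, had 48.5 and 138 CPM in CON and 218 and 209 CPM in SD (1.19, SE 0.63, adjusted p = 0.29), with CON values far apart. Nr4a1 had 35.9 and 67.3 CPM in CON and 109 and 90.6 CPM in SD (0.95, adjusted p = 0.189), and Nr4a2 went the other way, with 84.8 and 64.8 CPM in CON and 37.3 and 12.8 CPM in SD (-1.58, adjusted p = 0.438). Of 18 core clock genes only Rora was called, and the list median was 0.21. Of 14 glucocorticoid-responsive genes none was called, with a median of 0.27, and Sgk1, a kinase that glucocorticoids raise, was nearest with 70.6 and 61.1 CPM in CON and 115 and 135 CPM in SD (0.93, adjusted p = 0.0523). The lists of glutamate receptor subunits, GABA receptor subunits, sodium, calcium and HCN channels, potassium channels, postsynaptic scaffolds and kinases, and nuclear respiratory chain genes held 0 calls, with medians from -0.11 to 0.16. Of the 2 mitochondrially encoded genes tested, none was called.

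**Figure D3:**
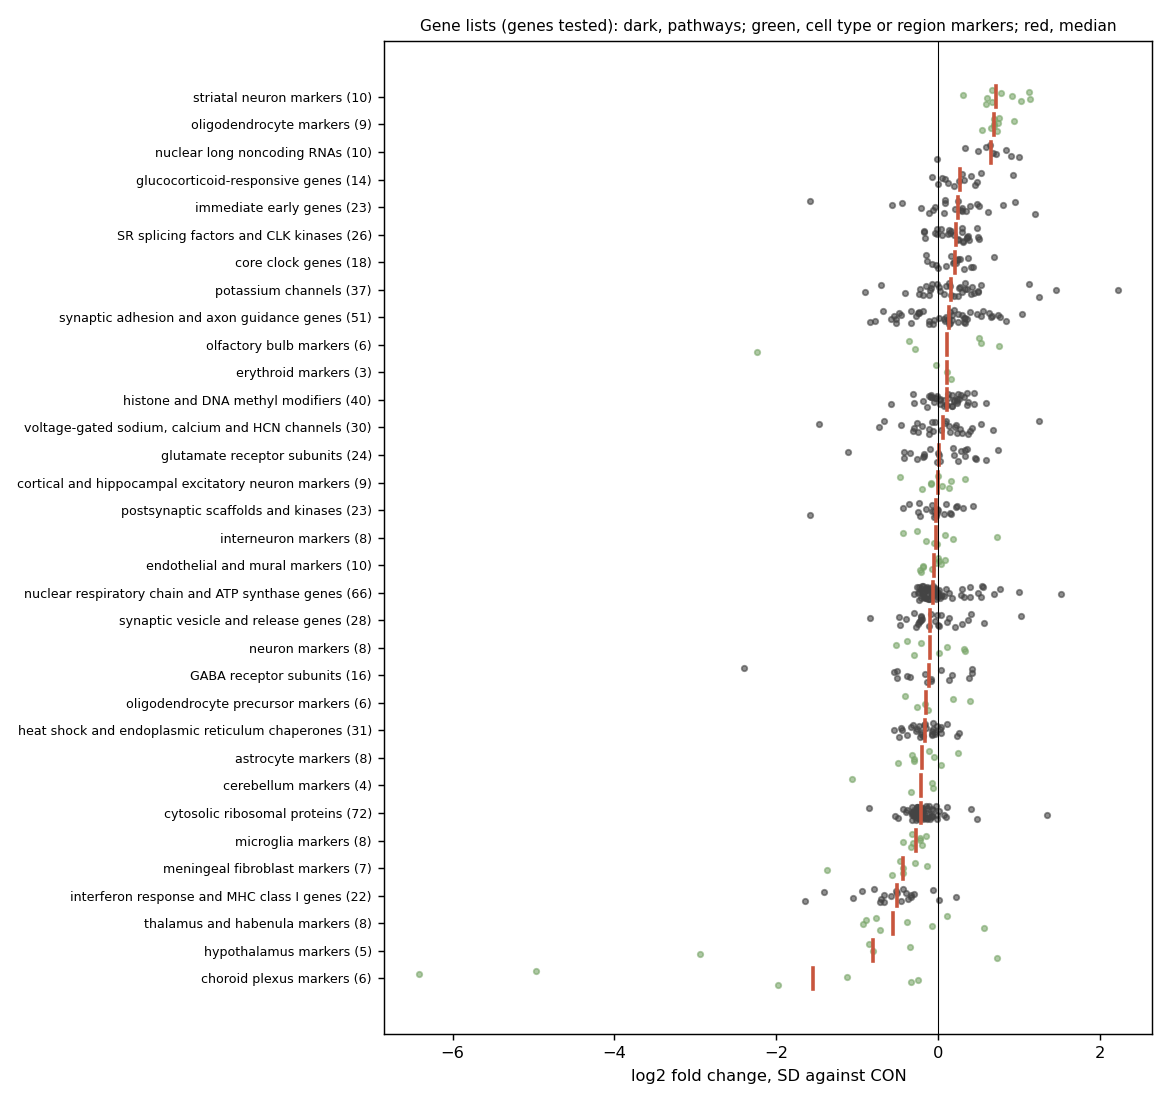
Log2 fold change of SD against CON at CT20 for every tested gene of each list (points; dark, pathways; green, markers of cell types or regions), with the list median as a red line and the number of genes tested in brackets. Nuclear long noncoding RNAs stand at 0.66 and interferon and MHC class I genes at -0.51, and marker lists are found at both ends, from -1.55 for choroid plexus to 0.72 for the striatum.

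Some markers of other cells and regions also differed between these 4 libraries, not always by group, and their part was not tested. The 9 oligodendrocyte markers had both SD libraries above both CON libraries without exception, with a sum of 3660 and 2859 CPM in CON and 4651 and 6332 CPM in SD and a median of 0.69, yet none was called, and libraries of other times spanned 841 to 5223 CPM. Of all 23078 features, 6155 had the groups apart in that direction. Choroid plexus markers, with a median of -1.55 over 6 genes, were high in CON replicate 2 alone, at 121 CPM, against 11.3 to 16.2 CPM in the other 3 libraries. The lists of the thalamus and habenula and of the hypothalamus had medians of -0.55 over 8 genes and -0.81 over 5, with no call, although the hypothalamus sum went the other way, from 17.3 and 11.6 CPM in CON to 23.3 and 19.1 CPM in SD. The high striatal sum was in SD replicate 2, whereas the intronic features and Malat1 were highest in SD replicate 1, where the striatal sum was lowest.

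How much of the response followed gene length was asked for the 15054 protein-coding genes. Median log2 fold change went up with genomic span, from -0.12 under 10 kb through -0.07 at 10 to 30 kb, 0.01 at 30 to 100 kb and 0.03 at 100 to 300 kb to 0.10 over 300 kb. The share of genes that rose went from 0.175% of 3419 in the shortest class to 3.10% of 549 in the longest, and the share that fell from 0.877% to 0.182%. Genes that rose had a median span of 60.5 kb, those that fell 16.9 kb and all tested 26.1 kb. Long genes, over 100 kb, exceeded short genes, under 10 kb, by 0.16 in median log2 fold change.

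**Figure D4:**
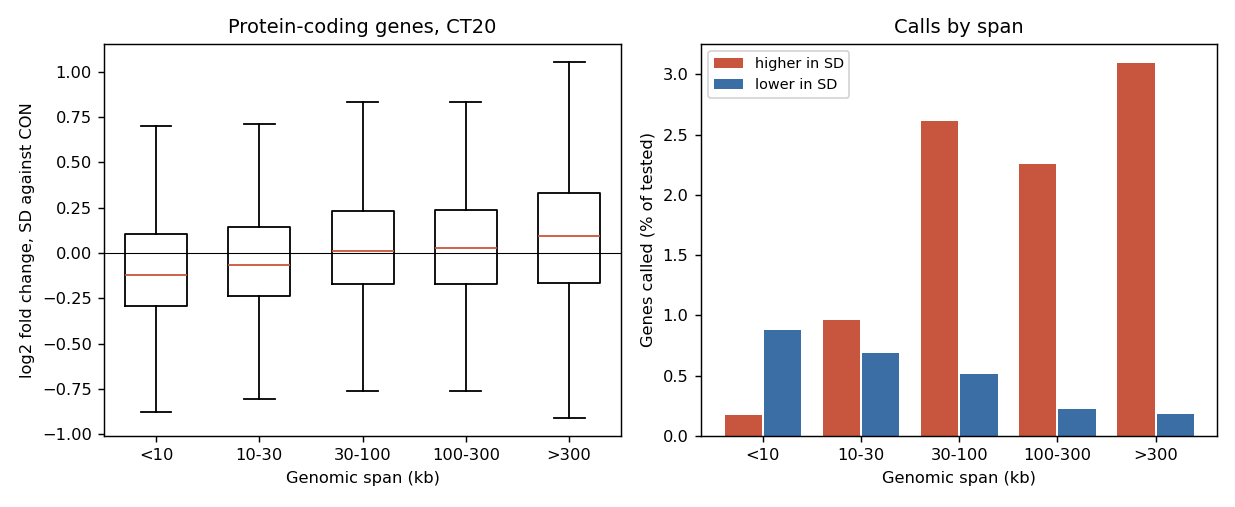
Protein-coding genes of the forebrain at CT20 by genomic span in kb, with the log2 fold change of SD against CON (left; boxes, quartiles with the median in red; whiskers, 1.5 times the interquartile range) and the percent of tested genes called higher (red) or lower (blue) in SD (right). Medians run from -0.12 to 0.10, within boxes that overlap widely, and calls pass from 0.877% lower under 10 kb to 3.10% higher over 300 kb.

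Span nevertheless described little of the variation between genes. Log10 span accounted for 0.839% of the variance of log2 fold changes across genes (r = 0.09, n = 15054 genes, which share the same 4 libraries), log10 exonic length for 0.532%, the GC content of the longest transcript for 0.202% and mean log2 CPM for 0.0823%. The 4 properties together accounted for 0.898%. Among the 12974 genes with a mean of at least 1 CPM, where counting noise is smaller, span accounted for 2.27%. Over all 15054 genes, span accounted for 0.0551% to 0.581% at the other 5 forebrain time points, against 0.839% at CT20. Its slope was negative at CT12 and CT24.

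The span trend was then removed from each library. When the 15054 genes were fitted alone, 306 were called, 255 of them higher. After a smooth trend on span had been taken out of each library over these genes, long exceeded short genes by 0.03, and 255 were called, 201 of them higher, with 223 called in both fits. Of the 29 named protein-coding genes, 9 were not called after that step. Atp2b4, Syp and Psme2 were not called in the protein-coding fit before it either. The others were Rpl7 (log2 fold change from -0.29 in the protein-coding fit to -0.19, adjusted p = 0.0926), Mdp1 (0.149), D930007J09Rik (0.118), Chd1 (0.0578), Rbfox1 (0.0563) and Tmed8 (0.0503). Acot10 was called (adjusted p = 0.0477). Calls under 10 kb went from 7 higher and 18 lower to 9 and 2, and those over 300 kb from 17 and 0 to 12 and 5. A trend estimated over all features left a difference of 0.14, with 522 calls (2.26%), of which 356 were higher and 166 lower against 426 and 100 without it. The share of higher calls was thus 68.2% with this trend and 81.0% without it. The trend over all features was also fitted to same-strand intronic features, with a median span of 1.4 kb and a median change of 0.74. Under it the median of protein-coding genes under 10 kb went from -0.12 to -0.14, and their lower calls from 30 to 66. Its shift in calls is therefore not the effect of removing span among protein-coding genes alone. Among named genes, with the trend over all features the call of Acot10 was lost (adjusted p = 0.0518), as were those of Syp (0.0601) and Chd1 (0.0585).

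The length balance was uneven within groups. The median log2 deviation of long minus short genes was -0.07 and -0.17 in the CON libraries and 0.11 and -0.04 in the SD libraries, and at other times it lay between -0.12 and 0.08. The SD libraries were above the CON libraries, but SD replicate 2 lay nearer to CON replicate 1 than to SD replicate 1. An exact permutation test of 2 against 2 libraries cannot give a two-sided p below 0.333. The intronic balance, the median of intronic features minus that of protein-coding genes, was -0.31 and -0.66 in CON and 0.52 and -0.04 in SD. Intronic features took 0.588% and 0.424% of tested counts in CON and 1.20% and 0.721% in SD. With the intronic balance of each library as a covariate in the fit, no feature was called (2408 at an unadjusted p under 0.05). The balance was computed from the same counts and stands apart between the CT20 groups. The loss of calls therefore cannot show how much of the changes it carries. The fitted changes of single genes went different ways under this covariate. Zfp385b went from 0.93 to 0.99 on the log2 scale, Atp2b4 from -1.21 to -1.81 and Zdhhc22 from -1.01 to -1.23. Immp2l went from 0.83 to 0.08, Gm43318 from 1.61 to 0.17 and Malat1 from 0.90 to 0.63.

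The CT20 controls were also set against the controls of other times, where edgeR called 0 features (3715 at an unadjusted p under 0.05), and the SD libraries likewise, with 0 calls (1705). Relative to the other 10 CON libraries, the 426 higher features had a median log2 difference of -0.49 in CON at CT20, and relative to the other 10 SD libraries one of 0.24 in SD. For the 136 intronic features among them the values were -0.80 and 0.33. Of the 426, 60 had both CON libraries below all 20 libraries of other times, and 25 had both SD libraries above all 20, where over all 23078 features these counts were 205 and 153. Of the 100 lower features, 31 had both CON libraries above all 20 and 21 both SD libraries below, against 260 and 135 of all features. Since the features were chosen for SD and CON standing apart, these counts are a description. CON libraries of CT16 were also low in the intronic balance, at -0.76 and -0.30.

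At the other forebrain time points the only call was Gm37633 at CT16 (0.00433%), which is no result about the 526, since CT20 was chosen by these counts. At CT16, 97.7% of the higher and 94% of the lower features had the same sign as at CT20, with medians of 0.39 and -0.15. At CT4 and CT8 the shares were 78.4% and 84.5% of the higher and 73% and 51% of the lower. At CT12 and CT24 most signs were opposite, with 10.8% and 6.10% of the higher and 20% and 26% of the lower of the same sign, and medians of the higher features of -0.19 and -0.21. Over all features the shares of the same sign were 56.6%, 55.7%, 38.5%, 65.6% and 36.7% at CT4, CT8, CT12, CT16 and CT24. The features share the same libraries at each time, so these shares do not count independent genes. The intronic class itself had medians of 0.12, 0.16, -0.23, 0.56 and -0.28 at CT4, CT8, CT12, CT16 and CT24. When the CT20 effect was tested against the mean of the other 5, edgeR called 0 features (lowest adjusted p = 0.0938, 4177 at an unadjusted p under 0.05) and DESeq2 782, and edgeR called 523 without SD replicate 2. Among named genes, Gbp4 and Maged2 were lower in SD at all 5 other times, with log2 fold changes of Gbp4 from -1.68 to -0.59, while Rbfox1, Vstm2a, Zdhhc22 and Lcp2 kept their sign at 4.

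The cerebellum was sampled at CT20 under the same conditions, and the sources used here do not say whether it came from the same mice. In its 4 libraries no feature of 22218 was called by edgeR (1274 at an unadjusted p under 0.05), and DESeq2 called 10. The spread was estimated from the cerebellum libraries of all times. Among these, CON replicate 1 of CT8 had antisense counts at 22.2% of their partner genes and 0.510% mitochondrial counts. In the CT20 libraries these were 5.25% to 5.56% and 0.138% to 0.165%. Fitted alone, the 4 libraries gave 488 calls, 95 higher and 393 lower in SD. The effect of that CT8 library on the cerebellum calls was not tested. Of the 426 higher forebrain features, 424 were tested there, and 81.6% had the same sign, with a median of 0.14. Of the lower, 74.2% of 97 had the same sign, with a median of -0.05. Among all features tested in both tissues the share was 58.6%. The same-strand intronic class had a median of 0.10, and long exceeded short genes by 0.04. Malat1 had a log2 fold change of 0.19 (SE 0.14), with 11217 and 11932 CPM in CON and 13175 and 13322 CPM in SD. Gbp4 was lower in the cerebellum as well (-2.07, SE 0.34). The difference between the tissues' effects was tested in a fit of their 48 libraries, the CT8 cerebellum library described above included. Of 24219 features, 0 passed (2199 at an unadjusted p under 0.05). Of the 47 named genes, 29 had an unadjusted p under 0.05 in that test, with a lowest adjusted p of 0.251.

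**Figure D5:**
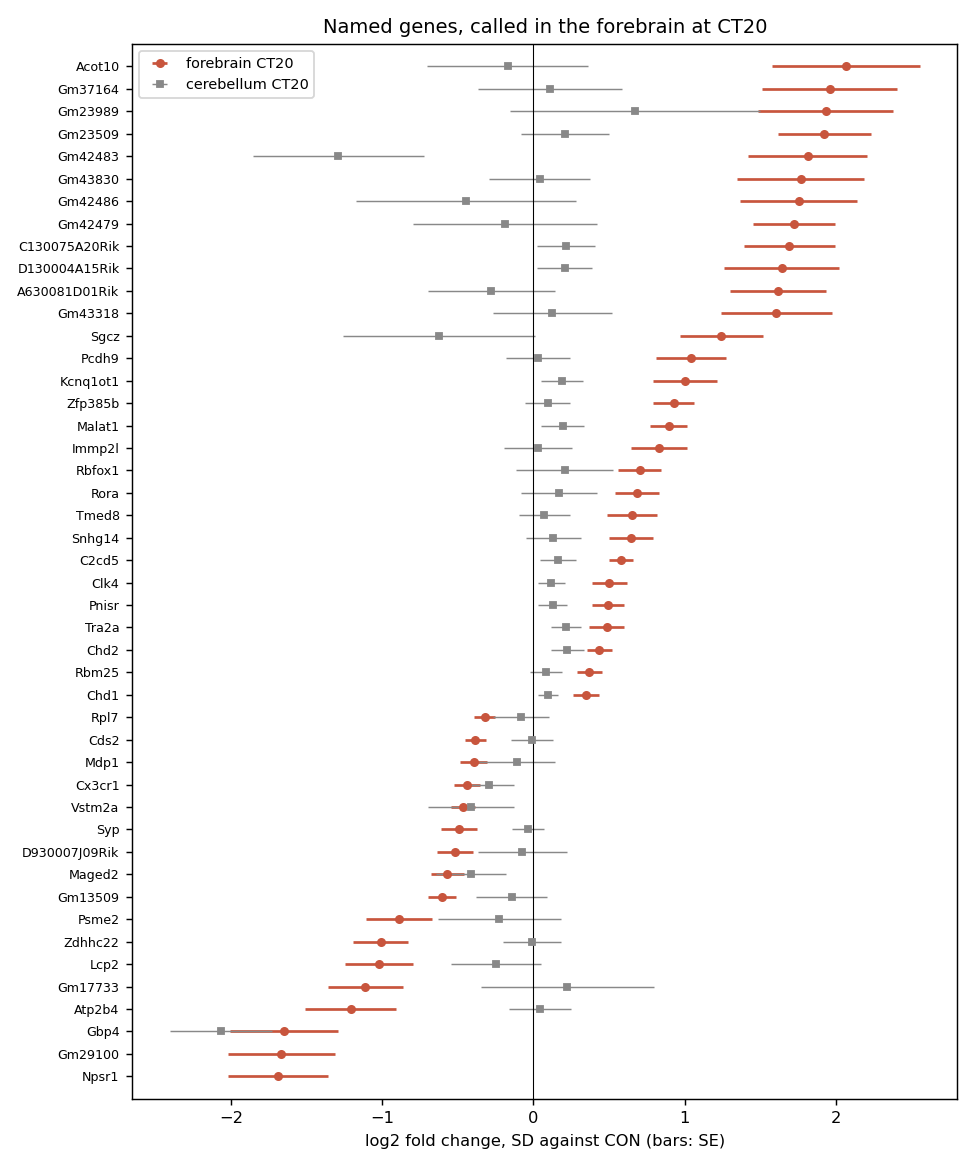
Log2 fold change of SD against CON at CT20 for the named genes called in the forebrain (red circles) and the same genes in the cerebellum (grey squares), with bars for the SE of the edgeR fit. Forebrain values run from -1.69 for Npsr1 to 2.07 for Acot10, and those of the cerebellum lie nearer to 0 for all but Gbp4; Npsr1 and Gm29100 were not tested in the cerebellum.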

How the data were processed

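Total RNA of 4 tissues was sequenced as stranded paired reads of 150 bp, and the 24 forebrain and 24 cerebellum libraries were used here. The authors trimmed reads with Trim Galore 0.6.4, aligned them to GRCm38 with HISAT2 2.1.0, kept a mapping quality of 60 with Samtools 1.9 and deposited reverse-stranded featureCounts 1.6.4 counts per gene, unnormalized. From these counts, edgeR 4.0.16 (R 4.3.3) quasi-likelihood F-tests were run with 12 group means per tissue, filterByExpr and TMM scaling, with Benjamini-Hochberg adjustment over all features and a threshold of 0.05. SE was taken as the log2 fold change over the square root of F. Symbols, spans and positions came from GENCODE M21. The fits were tested on simulated data.

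Named genes, at a mean of at least 1 CPM and with groups apart, were the 12 largest increases, 8 largest decreases, 5 smallest p in each direction, 3 longest and 3 shortest called genes, called list members, and those next to the threshold. Members and lists were chosen with earlier results of these data known. Alternatives were another scaling, no filter, DESeq2 1.42.0, a replicate block, span offsets, narrower fits and each replicate left out. Same-numbered libraries did not deviate together at every time (r from -0.32 to 0.55), so numbers were not taken as pairs.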

Additional observations from a re-analysis of the deposited data

Results flagged for a closer look

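At CT12 and CT24 every SD forebrain library lay on the other side of its controls from CT20 in both library balances. For long minus short protein-coding genes, SD minus CON was -0.060 at CT12 and -0.066 at CT24, against 0.15 at CT20. For intronic features minus protein-coding genes it was -0.21 at CT12 and -0.28 at CT24, against 0.72 at CT20. The difference between time points was not tested.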

How the results depend on the processing

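Against 526 calls, the CT20 forebrain comparison gave 186 with library sizes alone, 1118 without a filter on low counts and 1700 with DESeq2, and 0 to 1193 with each replicate left out in turn. The replicate block gave 851, 445 of them shared, although the numbers were not shown to pair libraries. It gave 0 with the 4 CT20 libraries alone and 0 when adjusted over 6 time points. Protein-coding genes alone gave 306. Alternatives chosen after seeing the data gave 255 when span was removed from these, and 0 with the intronic balance as a covariate. That balance comes from the same counts and differs between the CT20 groups, so this 0 cannot show what it carries. For CT20 against the other times, 0 calls became 490 without a filter, 782 with DESeq2 and 0 to 523 with a replicate left out. In the cerebellum, 0 became 422 without a filter, 10 with DESeq2, 488 with 4 libraries alone and 0 to 1 with a replicate left out, the 1 being Gm28439 without SD replicate 1. Long minus short genes went from 0.16 to 0.026 with the protein-coding span trend removed, and the intronic difference ranged from 0.45 to 1.05 with a replicate left out. Causes were not tested, beyond what each setting removes. No named gene reversed, which for a replicate left out follows from the groups standing apart in all of them. A GC offset from genomic sequence was not run, since no genome sequence was used here. With 2 libraries a group, the adjusted p-values close to 0.05 leave little margin.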
